A study of Homo sapiens with 6 samples.

Results

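The anaphase-promoting complex, or cyclosome (APC/C), was described here through 10 genes: the activators CDC20 and FZR1, the ubiquitin-conjugating (E2) enzymes UBE2C and UBE2S, the inhibitor FBXO5, the substrate PTTG1, and the core subunits ANAPC1, ANAPC5, CDC27 and CDC16. The genes were matched by the symbol that the platform annotation gives to each row of the deposited expression table. A row was found for 9 of the 10 genes, among 23786 rows in all, and PTTG1, the gene of securin, was not analysed here. Expression was measured on single-colour microarrays in HSC3 cells, an established human line of oral squamous carcinoma. The 3 control wells received 0.1% dimethyl sulfoxide (DMSO), and the 3 treated wells received 0.1 μM E7386 dissolved in DMSO. E7386 is a small molecule described as blocking the interaction of β-catenin with its coactivator CREB-binding protein. Treatment began 12 to 24 hours after seeding, at about 50% confluency, and RNA was taken 48 to 64 hours later. The sample titles call the 3 samples of each group biological replicates, and the protocols describe triplicate wells of one line without saying that they came from independent experiments. The p-values therefore reflect variation among wells, some of it perhaps technical.

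The APC/C is a ubiquitin ligase that marks mitotic proteins for destruction by the proteasome. CDC20 directs it to securin and cyclin B at the start of anaphase, and FZR1 (also called CDH1) keeps it active from late mitosis through G1. UBE2C starts the ubiquitin chains, UBE2S extends them, and FBXO5 (EMI1) holds the complex off during S phase and G2. In dividing human cells the transcripts of CDC20, UBE2C, FBXO5 and PTTG1 are known to peak around mitosis or S phase, and the core subunits are known as a largely constant machine. UBE2S was grouped with the periodic regulators.

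Promoter sequences of some of the genes are shown first, because genes of late cell cycle phases are known for 2 short elements. One is the cell cycle homology region (CHR), TTTGAA, and the other is the CCAAT box, CCAAT, which binds the factor NF-Y. Another motif, an E2F-type element written TTTNNCGC, was searched as well. RefSeq promoter windows of 300 bases (build GRCh38.p14), running from 250 bases before to 50 bases after the gene start, were matched for 9 of the 10 genes and searched on both strands. Among all 35116 such windows of the reference, 15.2% held the CHR letters, 34.6% a CCAAT box and 6.89% the E2F-type letters. These 9 genes include PTTG1 and leave out UBE2C, and so are not the 9 measured on the arrays. Of them, 4 had the CHR letters in at least 1 of their windows, 7 a CCAAT box and 1, CDC16, the E2F-type letters. FZR1, FBXO5 and PTTG1 had 2 windows each. Counts over any window of a gene are not directly comparable with the shares of single windows. A match describes letters only, and a link to the change in expression was not tested. The windows printed below belong to some of the genes called lower with E7386, as described further on. ANAPC1 was also called lower and is not printed. Its window held the CHR letters beginning at base 38 from the start, and no CCAAT box. CCAAT boxes were also found for UBE2S, ANAPC5 and CDC16, which were not called. Of the 14 core subunits, 3 had the CHR letters, 6 a CCAAT box and 4 the E2F-type letters (CDC16, ANAPC7, ANAPC15 and CDC23). Of the 5 other genes of the set with a window, 3 had the CHR letters, 4 a CCAAT box and 0 the E2F-type letters. Capitals mark every match below, and the sequences run 5′ to 3′ along the strand of the gene.
CDC20: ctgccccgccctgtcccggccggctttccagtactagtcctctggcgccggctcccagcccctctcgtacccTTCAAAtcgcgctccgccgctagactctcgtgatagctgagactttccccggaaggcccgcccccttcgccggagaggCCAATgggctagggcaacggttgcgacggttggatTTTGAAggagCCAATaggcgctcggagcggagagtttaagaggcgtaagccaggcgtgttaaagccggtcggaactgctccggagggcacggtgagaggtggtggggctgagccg
FBXO5: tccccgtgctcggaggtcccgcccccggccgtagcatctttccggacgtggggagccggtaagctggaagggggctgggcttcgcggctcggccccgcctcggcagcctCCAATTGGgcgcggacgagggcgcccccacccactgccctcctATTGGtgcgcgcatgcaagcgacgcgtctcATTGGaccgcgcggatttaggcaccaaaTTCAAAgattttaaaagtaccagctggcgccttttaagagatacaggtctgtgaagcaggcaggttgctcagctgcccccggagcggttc
FZR1: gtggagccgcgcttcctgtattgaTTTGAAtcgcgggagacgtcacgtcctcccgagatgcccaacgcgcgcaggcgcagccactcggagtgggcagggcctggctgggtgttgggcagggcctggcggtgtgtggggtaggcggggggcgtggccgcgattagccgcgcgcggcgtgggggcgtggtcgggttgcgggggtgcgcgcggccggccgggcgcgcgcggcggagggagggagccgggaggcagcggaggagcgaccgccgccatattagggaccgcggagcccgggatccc
CDC27: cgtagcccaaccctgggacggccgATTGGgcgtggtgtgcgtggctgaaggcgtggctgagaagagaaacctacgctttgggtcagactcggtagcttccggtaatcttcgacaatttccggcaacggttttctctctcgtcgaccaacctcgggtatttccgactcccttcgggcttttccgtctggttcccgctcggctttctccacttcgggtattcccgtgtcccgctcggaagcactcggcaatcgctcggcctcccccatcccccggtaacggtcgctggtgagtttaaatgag
The CDC20 window (chr1:43358731-43359030, plus strand) held the CHR letters 65 bases before the start and, on the opposite strand, 178 bases before it, with CCAAT boxes 100 and 55 bases before the start. The FBXO5 window (chr6:152982992-152983291, minus strand) held the CHR letters on the opposite strand 40 bases before the start. It also held CCAAT letters 141, 138, 98 and 68 bases before the start, of which those at 141 and 138 overlap on opposite strands. A second FBXO5 window (chr6:152983530-152983829) held no match. The FZR1 window (chr19:3506061-3506360, plus strand) held the CHR letters 226 bases before the start and no CCAAT box, and its second window held no match. The CDC27 window (chr17:47189246-47189545, minus strand) held a CCAAT box on the opposite strand 226 bases before the start.

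Most of these genes were lower with E7386, and the regulators led. UBE2C, CDC20 and FBXO5 fell by 1.10, 0.89 and 0.79 on the log2 scale, FZR1 fell by 0.34, and among the core subunits CDC27 and ANAPC1 fell by 0.58 and 0.34. None was called higher, and UBE2S, ANAPC5 and CDC16 were not called. Of the 9 measured genes 6 were thus called lower in a limma fit over all rows, at a Benjamini-Hochberg adjusted p under 0.05. In the same fit 8.69% of all rows were called lower, 9.93% higher and 18.6% in either direction. Among rows at or above the median row, where 8 of the 9 genes lie, 15.1% were called lower, 18.2% higher and 33.2% in either direction, a background added after the data were seen. The median difference was -0.34 over the 9 genes and -0.016 over all rows. In 7 of the 9 genes the wells of one group all lay on one side of the other group, as they did in 35.2% of all rows. In such bulk samples, fewer cells in a cycle phase and less RNA per cell cannot be told apart.

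**Figure D1:**
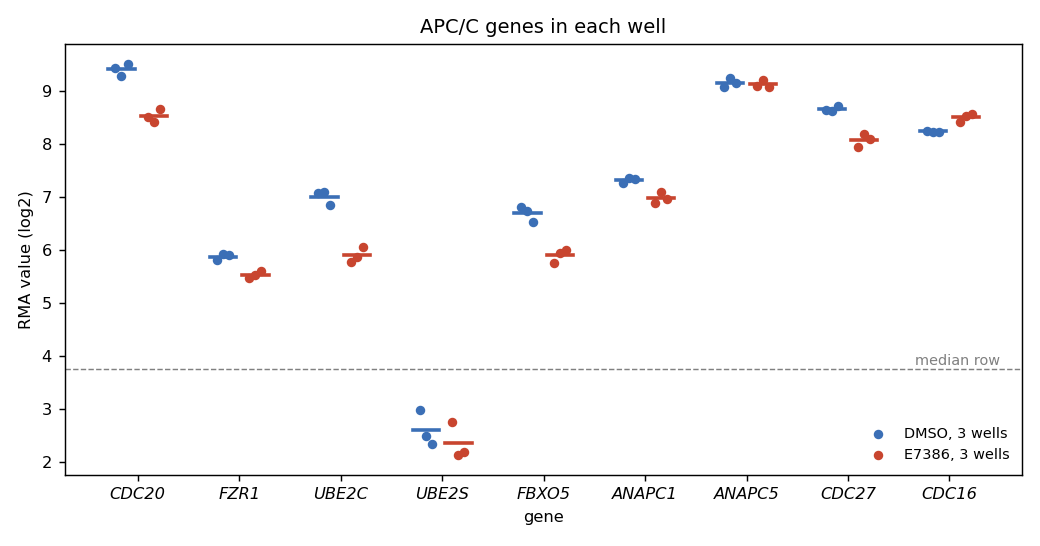
Log2 RMA values (vertical axis) of the 9 measured genes (horizontal axis), with a point for each of the 3 DMSO and 3 E7386 wells, a short line at each group mean and a dashed line at the median row. The groups are apart for CDC20, FZR1, UBE2C, FBXO5, ANAPC1, CDC27 and CDC16 and overlap for UBE2S and ANAPC5, and UBE2S alone lies below the median row.

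Of the activators, CDC20 is the one that binds the complex in early mitosis. Its log2 values were 9.43, 9.28 and 9.51 in the DMSO wells and 8.50, 8.41 and 8.65 in the E7386 wells. Every treated well lay below every control well. The mean went from 9.41 ± 0.12 (SD, n = 3) to 8.52 ± 0.12, a difference of -0.89 ± 0.11 (SE) and a 1.85-fold decrease (limma adjusted p = 0.0015). Only 1.75% of all rows had a lower difference.

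FZR1, the activator of late mitosis and G1, read 5.81, 5.92 and 5.91 in DMSO and 5.47, 5.53 and 5.62 with E7386. The groups did not overlap, but the gap between them was small. The difference was -0.34 ± 0.087, a 1.27-fold decrease (limma adjusted p = 0.033). Leaving out single wells ended the call in 5 of 6 cases, at adjusted p from 0.065 to 0.10, and it stayed at 0.049 without the first DMSO well. The change of CDC20 exceeded that of FZR1 by 0.55 ± 0.10 (SE) on the log2 scale, with no overlap between the groups in the within-well difference. The two-sided exact permutation test gave p = 0.10, the smallest that 3 against 3 wells allow, and 0.10 after adjustment over the 2 pairs of genes compared in this way.

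Of the E2 enzymes, UBE2C, which places the first ubiquitin on APC/C substrates, had the largest difference of the 9 genes. It measured 7.08, 7.10 and 6.85 in DMSO and 5.78, 5.88 and 6.05 with E7386. Every treated well lay below every control well. The difference was -1.10 ± 0.11 (SE), a 2.15-fold decrease (limma adjusted p = 8.1e-04), and 1.03% of all rows had a lower one.

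UBE2S, which elongates the chains, gave no readable change. Its values were 2.99, 2.49 and 2.35 in DMSO and 2.77, 2.14 and 2.21 with E7386. The groups overlapped, and in each group the first well stood above the other two. All values were below the median row, which averaged 3.75, where RMA compresses differences and expression cannot be told from background. The difference was -0.24 ± 0.22 with an unadjusted 95% interval from -0.75 to 0.27 (limma adjusted p = 0.54). Leaving out single wells moved it from -0.047, without the first DMSO well, to -0.44, without the first E7386 well. The fitted change of UBE2C minus that of UBE2S was -0.87 ± 0.31 (SE; two-sided exact permutation p = 0.10, the smallest possible, and 0.10 adjusted over the 2 pairs). With UBE2S below the median row, this value does not show that one E2 gene changed more than the other.

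FBXO5 encodes EMI1, which blocks substrate binding and chain growth on the APC/C until mitosis. Its values were 6.81, 6.74 and 6.53 in DMSO and 5.76, 5.95 and 6.00 with E7386. All treated wells lay below all control wells. The difference was -0.79 ± 0.11 (SE), a 1.73-fold decrease (limma adjusted p = 0.0032). Transcripts of the inhibitor and of the activator CDC20 were both lower in the treated wells. The unadjusted 95% intervals of these differences overlapped, from -1.05 to -0.52 for FBXO5 and from -1.14 to -0.64 for CDC20.

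**Figure D2:**
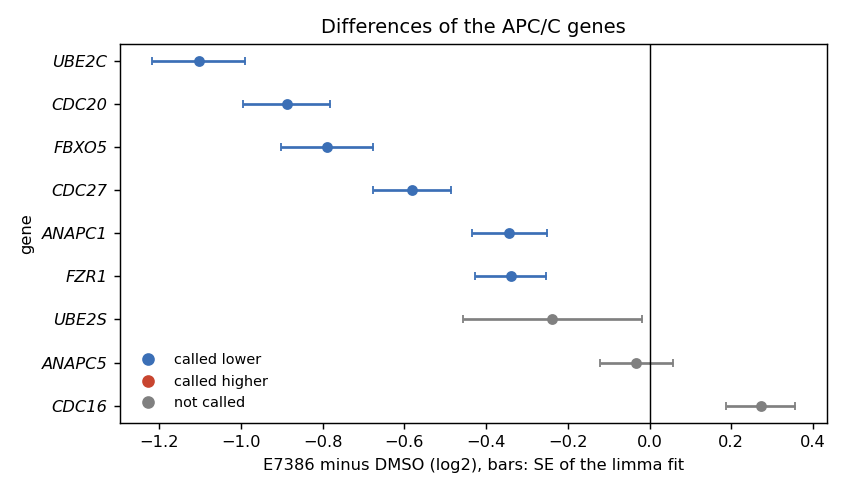
Difference between E7386 and DMSO on the log2 scale (horizontal axis) for the 9 measured genes, with the standard error of the limma fit as bars and 3 wells per group. Differences run from -1.10 for UBE2C to 0.27 for CDC16, with 6 genes called lower and none called higher.

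Of the 4 core subunits of the set, 2 were called lower and 2 were not called. All 4 lie above the median row, where 15.1% of rows were called lower and 18.2% higher. CDC27, a scaffold subunit with tetratricopeptide repeats that receives the tails of the activators, read 8.64, 8.61 and 8.71 in DMSO and 7.95, 8.19 and 8.09 with E7386. The groups were well apart. The difference was -0.58 ± 0.096 (limma adjusted p = 0.0057), and it stayed called in all 14 alternative fits. CDC27 also has near-identical copies elsewhere in the genome that may share probes, so its value carries that uncertainty.

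ANAPC1, the largest platform subunit, stood at 7.27, 7.36 and 7.33 in DMSO and at 6.88, 7.09 and 6.96 with E7386. The groups did not overlap. The difference was -0.34 ± 0.091 (limma adjusted p = 0.037), and no fit that left out a single well kept the call, with adjusted p from 0.051 to 0.11. ANAPC1 has pseudogene copies that may share its probes. Their own rows, ANAPC1P1 and ANAPC1P2, differed by -0.19 ± 0.15 and -0.034 ± 0.14 and were not called (limma adjusted p = 0.44 and 0.91). ANAPC1P1 lay below the median row, at 2.04 in DMSO and 1.84 with E7386, where expression cannot be told from background.

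ANAPC5, another platform subunit, read 9.08, 9.24 and 9.14 in DMSO and 9.08, 9.20 and 9.08 with E7386. The groups overlapped. The difference was -0.032 ± 0.090, with an unadjusted 95% interval from -0.24 to 0.18 (limma adjusted p = 0.86). CDC16, a repeat-bearing scaffold subunit, read 8.25, 8.23 and 8.23 in DMSO and 8.42, 8.53 and 8.57 with E7386. Every treated well of CDC16 was above every control well, the opposite order to CDC27. The difference was 0.27 ± 0.085 with an unadjusted 95% interval from 0.074 to 0.47, and it was not called (limma adjusted p = 0.066, unadjusted p = 0.014). It was called higher in 4 of the 14 alternative fits, at adjusted p from 0.0069 to 0.034.

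Of the other 10 core subunits, 2 fell, 2 rose and 6 were not called, with a median difference of -0.13. All 10 lay above the median row, where 15.1% of rows were called lower and 18.2% higher, so these counts are near the background. ANAPC15, a small subunit that promotes release of the mitotic checkpoint complex, read 9.36, 9.52 and 9.38 in DMSO and 8.22, 8.35 and 8.31 with E7386. This gap was wider than in any other core subunit measured here. ANAPC15 fell by 1.13 ± 0.090, a 2.19-fold decrease (limma adjusted p = 2.7e-04), and 0.988% of all rows had a lower difference. ANAPC2, the cullin subunit of the catalytic core, fell by 0.43 ± 0.099 (limma adjusted p = 0.021). That call did not hold in 4 of the 6 fits on fewer wells: adjusted p was 0.062 and 0.061 when DMSO well 1 or 3 was dropped, and 0.055 and 0.075 when E7386 well 1 or 2 was.

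ANAPC13, a small subunit that stabilises the scaffold, rose with E7386. It read 7.56, 7.55 and 7.50 in DMSO and 8.28, 8.11 and 8.09 with E7386. The difference was 0.62 ± 0.090, a 1.54-fold increase (limma adjusted p = 0.0034). ANAPC16, another small subunit, rose from 8.27, 8.32 and 8.34 to 8.84, 8.73 and 8.77. Its difference was 0.47 ± 0.083 (limma adjusted p = 0.0074). The calls of ANAPC13, ANAPC15 and ANAPC16 held in all 14 alternative fits.

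The remaining subunits were not called. ANAPC11, the RING subunit that binds the E2, differed by 0.21 ± 0.10, and ANAPC7, a scaffold subunit, by -0.26 ± 0.080 (limma adjusted p = 0.22 and 0.064). ANAPC7 was called lower in 4 of the 14 alternative fits, at adjusted p from 0.011 to 0.015. ANAPC10, a coreceptor for substrates, differed by -0.15 ± 0.18. ANAPC4, of the platform, and CDC26, which stabilises CDC16, both differed by -0.13, with SE of 0.087 and 0.094. CDC23, a scaffold subunit, differed by 0.0054 ± 0.095. Over all 14 core subunits, 4 were called lower, 2 higher and 8 neither, with a range from -1.13 to 0.62, beside 15.1% lower and 18.2% higher among rows at or above the median row.

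**Figure D3:**
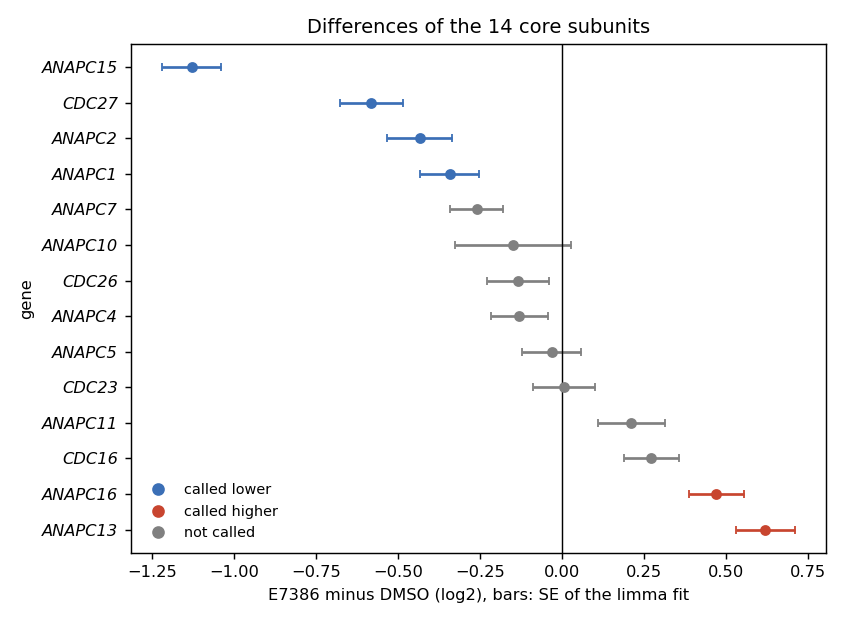
Difference between E7386 and DMSO on the log2 scale (horizontal axis) for all 14 core subunits of the APC/C, with the standard error of the limma fit as bars and 3 wells per group. ANAPC15 at -1.13 and ANAPC13 at 0.62 stand at the ends, and 8 subunits were not called.

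The set was then read as periodic regulators against core subunits. The 4 measured periodic regulators were CDC20, UBE2C, UBE2S and FBXO5, and FZR1 was kept apart. Their mean log2 value was 6.58, 6.40 and 6.31 in the DMSO wells and 5.70, 5.59 and 5.73 in the E7386 wells. The mean of the 4 core subunits was 8.31, 8.36 and 8.35 in DMSO and 8.08, 8.25 and 8.17 with E7386. Both means were lower in every treated well than in any control well, and the shift of the regulators was the larger. The regulators differed by -0.75 on average and the core subunits by -0.17, so the regulators differed by a further -0.58, against a between-well SD of 0.15. Leaving out the dim UBE2S, a choice made after its values were seen, made this -0.76. No p is given, since the genes were chosen with earlier results of these data known.

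The core subunits were spread around their average. The SD of the differences over the 4 core subunits was 0.37, as it was over the 4 regulators. With all 14 core subunits the mean difference was -0.12 and the SD over subunits was 0.45.

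**Figure D4:**
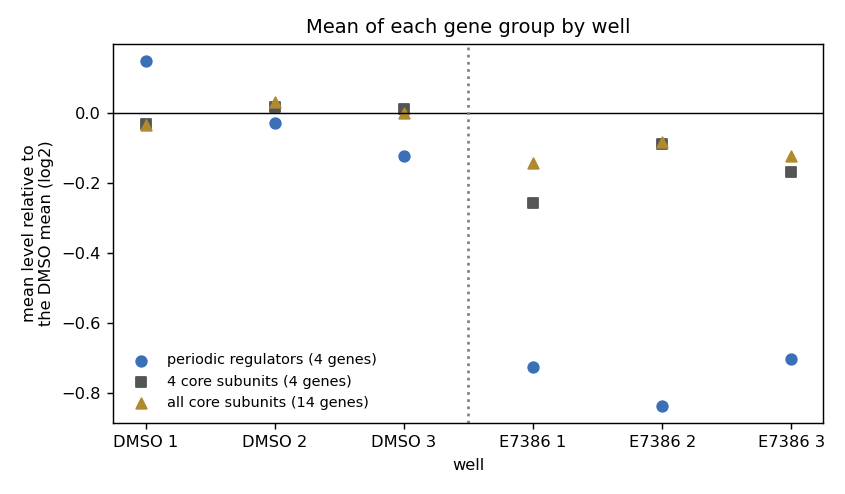
Mean log2 level of each gene group in each well (horizontal axis), relative to that group's DMSO mean (vertical axis), for 4 periodic regulators, 4 core subunits and all 14 core subunits. In the E7386 wells the regulators average -0.75 and the 4 core subunits -0.17.

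Transcripts of most substrates of the complex were also lower. Levels of the substrate proteins and activity of the complex were not measured. Of 23 measured substrates 21 were called lower and none higher, also none higher at an unadjusted p under 0.05 in limma, with a median of -1.31. Over all rows 8.69% were called lower and 9.93% higher. Among rows at or above the median row, where all 23 lie, the shares were 15.1% and 18.2%. At the lower end stood the mitotic kinase gene PLK1 at -2.30 ± 0.091, the cyclin gene CCNB1 at -2.18 ± 0.15, NUSAP1, a microtubule bundling protein gene, at -2.11 ± 0.16 and HMMR, a spindle protein gene, at -2.03 ± 0.095 (limma adjusted p at most 2.1e-04). The substrates not called were CDC6, which loads the replicative helicase, at -0.080 ± 0.082, and the phosphatase gene CDC25A at -0.27 ± 0.11 (adjusted p = 0.59 and 0.13).

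Products of some, not all, of the spindle checkpoint genes listed here hold CDC20 inactive until chromosomes are attached. The list was called lower in part. Of 8 measured, 5 were called lower and none higher, again none higher at an unadjusted p under 0.05 in limma, with a median of -1.16. All 8 lie at or above the median row, where 15.1% of rows were called lower and 18.2% higher, beside 8.69% and 9.93% of all rows. The kinase genes TTK and BUB1 fell by 1.59 ± 0.13 and 1.51 ± 0.091. BUB1B and MAD2L1, whose products bind CDC20 in the checkpoint complex, fell by 1.53 ± 0.10 and 1.23 ± 0.12 (limma adjusted p at most 7.4e-04 for these 4 genes). BUB3, of the same complex, differed by 0.031 ± 0.083. MAD1L1, the kinetochore receptor of MAD2, differed by -0.020 ± 0.088, and MAD2L1BP, which helps take the complex apart, by -0.015 ± 0.15. TRIP13 was the other checkpoint gene called lower, at -1.08 ± 0.081 (limma adjusted p = 2.2e-04).

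Among 6 measured partners only ESPL1 was called, beside 18.6% of all rows called in either direction, so this count is near the background. ESPL1 encodes separase, the protease that securin inhibits. Its values were 6.34, 6.11 and 6.55 in DMSO and 4.37, 4.59 and 4.54 with E7386. ESPL1 fell by 1.83 ± 0.13, a 3.56-fold decrease (limma adjusted p = 1.7e-04). BTRC, the adaptor of the ligase that destroys EMI1, differed by 0.31 ± 0.095 and was not called (adjusted p = 0.059), though it was called higher in 3 alternative fits. The deubiquitinase genes USP37 and OTUD7B differed by -0.21 ± 0.099 and -0.13 ± 0.13. FBXO43, the meiotic relative of FBXO5, and USP44 lay below the median row in both groups, at 1.41 and 0.98 in DMSO, and were not called. The securin relatives PTTG2 and PTTG3P were also below it in DMSO, at 2.86 ± 0.43 and 3.44 ± 0.13, and differed by -0.45 ± 0.29 and 0.12 ± 0.14 without a call.

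**Figure D5:**
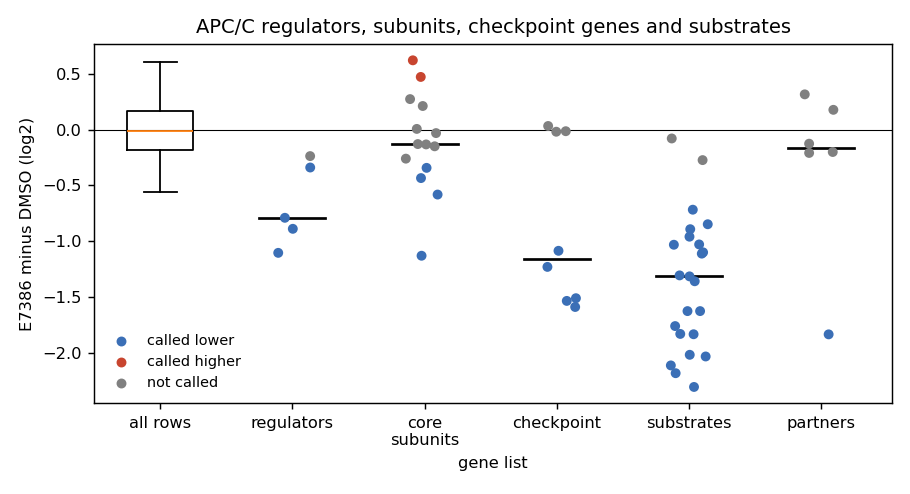
Difference between E7386 and DMSO on the log2 scale (vertical axis) for each gene of the APC/C regulators, core subunits, checkpoint genes, substrates and partners, with a line at each list's median and a box for all rows (quartiles, whiskers from the 5th to the 95th percentile). The regulators in this figure include FZR1. Substrates have a median of -1.31 and core subunits of -0.13.

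The genes whose values over the 6 wells came nearest to those of CDC20 were named by the Euclidean distance between log2 profiles, each centred on its own DMSO mean. They were SH3PXD2A at 0.13, CDCA5 at 0.15, TENT5B at 0.15, KCNH3 at 0.17 and RAD54L at 0.17. CDCA5 encodes sororin, a cohesin protector and APC/C substrate, RAD54L a motor of homologous recombination, SH3PXD2A a podosome scaffold and KCNH3 a potassium channel. Of the other genes of the set, FBXO5 was nearest at 0.43, followed by UBE2C at 0.53 and CDC27 at 0.61, and CDC16 was farthest at 2.02. Such a distance follows mainly the size of the treatment difference, since the wells fall into 2 groups.

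Array quality could be read only from the normalized values. Array medians lay between 3.74 and 3.79, which RMA largely fixes by giving all arrays one distribution. Correlations across genes were 0.992 to 0.995 within groups and 0.982 to 0.985 between groups. In all, 4430 rows were called, or 2907 without the third E7386 well. The 4 measured epithelial marker genes were well above the median row. KRT5 and KRT14 were called lower with E7386, at -0.79 and -1.64, and EPCAM and CDH1 differed by 0.19 and 0.26 without a call. Of 14 measured markers of fibroblasts, leukocytes and endothelial cells 13 lay below the median row. None was called in limma, and 1, CD14 at -0.62, passed an unadjusted p under 0.05. The marker above the median row was COL1A1, at 5.25 in DMSO and 5.30 with E7386. The mean of the fibroblast markers over wells ran from 2.51 to 2.78 in DMSO and from 2.49 to 2.61 with E7386, that of the leukocyte markers from 1.78 to 1.94 and from 1.68 to 1.91, and that of the endothelial markers from 1.90 to 2.13 and from 1.84 to 2.02.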

How the data were processed

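The log2 values of the deposited table were produced by the authors with RMA (affy 1.36.1), as the submitters' processing notes state. RMA corrects the background, gives all arrays one distribution and summarises probes. Neither the probe set definition nor the genome build is given in the sources used here. The platform annotation gave 1 symbol to 22458 of 23786 rows. All 6 sample columns were used as deposited. A linear model with treatment as its only term was fitted over all rows with limma 3.58.1 in R 4.3.3, with empirical Bayes moderation. The two-sided p-values received a Benjamini-Hochberg adjustment over every row, and the fit was tested on simulated data. The number of arrays limits the precision. The genes named were the 10 of the set, the other core subunits, near-identical copies, the 5 nearest to CDC20, and from each pathway list the 4 largest called differences and every gene not called. TRIP13 was named in addition, as the remaining checkpoint gene called lower. The members and lists were chosen with earlier results of these data known. Alternatives changed the normalization (quantile, median), dropped dim rows, changed or removed the variance prior, weighted arrays, blocked on the replicate number or left out each well.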

Additional observations from a re-analysis of the deposited data

How the results depend on the processing

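Of the 38 genes of the set and the pathway lists followed through the alternatives, 19 were called, and 16 of these kept direction and call in all of them. The exceptions were FZR1, ANAPC1 and ANAPC2, from the set and the other core subunits, which were followed whole. Called checkpoint, substrate and partner genes were followed only as the largest differences of their lists, so their calls were the likeliest to hold. Of all 23 substrates, 21 were called lower in the main fit and 20 in the ordinary test. Without single wells the count of rows called ran from 2907 to 3635, that of the 9 genes called lower from 4 to 5, and that of the other core subunits called lower from 1 to 2. The count of the set called higher was 1 (CDC16) without dim rows, with an intensity trend, with the trend and a robust prior, and in the ordinary test. The partners called higher numbered 1 (BTRC) in the first 3 of these. Leaving out UBE2S moved the difference of regulators from core to -0.76. With the replicate number as a block, 3701 rows were called, and FZR1 (-0.34, adjusted p = 0.060) and ANAPC1 (-0.34, adjusted p = 0.061) lost their calls. After group means were removed, same-numbered wells correlated across genes at 0.051, 0.12 and -0.0077, and differently numbered wells at -0.098 to 0.041. These values do not settle whether the numbers pair the wells. With the block, the within-pair differences of CDC20 from FZR1 and of UBE2C from UBE2S averaged -0.55 and -0.87, as they must with complete pairs. The exact sign-flip p was 0.25 for each, the smallest possible. The SE was 0.035 and 0.12, against 0.10 and 0.31 without the block. Signs turned for uncalled genes alone. Over the fits without single wells ANAPC5 ran from -0.073 to 0.011, ANAPC10 from -0.27 to 0.038, CDC23 from -0.046 to 0.048, MAD1L1 from -0.069 to 0.025 and MAD2L1BP from -0.15 to 0.12. CDC23 was -0.012 with renewed quantile normalization, and MAD2L1BP was 0.019 with array weights. The cause of these changes was not tested. UBE2S, FBXO43 and USP44 have no value without dim rows.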
